A study of Mus musculus with 9 samples.

Results

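Loss of β-catenin in mouse LSK cells was set against WT by comparing the open chromatin of 2 Bcat_KO libraries with that of 2 WT libraries, 4 of the 9 libraries of the series. LSK cells are lineage-negative, Sca-1-positive, Kit-positive bone marrow cells and include the stem cells of blood with their first progenitors. In ATAC-seq the transposase Tn5 cuts accessible DNA, and the deposited values are lists of peaks called in each library alone on GRCm38. Peaks of chromosomes 1 to 19 that shared at least 1 bp across the 4 lists were merged into 59131 regions. Each list was ranked by −log10 p and cut to its strongest 27536 peaks, as many as the shortest list held. Closed regions were those that ranked within 13768 in both WT libraries and beyond 27536, or had no peak, in both Bcat_KO libraries. Opened regions were the reverse case. This gave 36 closed regions, 0.0609% of all regions, and 116 opened regions, 0.196% of all regions. Of the 11535 regions within rank 13768 in both WT libraries, 0.312% were closed, and of the 11667 such regions of Bcat_KO, 0.994% were opened. Another 17507 regions ranked within 27536 in all 4 libraries and are called shared. The other 41472 regions belong to none of these classes. The cut equals the whole autosomal list of WT replicate 2, so a region beyond it there has no listed peak by construction, while the other lists run on past it. With WT replicate 1 left out, 226 regions were closed and 370 opened. Without WT replicate 2 they were 180 and 250 at the same cut, and 314 and 520 when the cut moved to the next shortest list, of 34583 peaks. Without Bcat_KO replicate 1 they were 93 and 315, and without Bcat_KO replicate 2, 104 and 310.

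The WT mice carry no named allele, and the Bcat_KO libraries are titled as a knockout and tagged as a β-catenin knockdown. The labels give no age, sex, allele or Cre driver and do not say whether replicates are different mice, so differences within a group may be technical. The series text speaks of transplanted Prmt1KO mice only, and whether the WT and Bcat_KO cells passed through a transplant is not said. Per the labels, each library was made from 50000 cells. As these are bulk samples, more cells of a type with an open region and more opening per cell cannot be told apart.

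β-catenin is the nuclear effector of canonical Wnt signalling. Without a Wnt signal, a destruction complex of Axin, Apc, Gsk3 and casein kinase marks it for degradation. When the signal arrives through Frizzled and Lrp5 or Lrp6 receptors, it builds up, enters the nucleus and binds DNA through Lef1 and the Tcf factors, which otherwise hold Tle corepressors. In blood formation, Wnt signalling is studied for its dose-dependent role in stem cell self-renewal and in leukaemia.

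The promoters printed here show what a changed gene start looked like in these data, with 1 line per gene. Opened regions lay over the starts of Sema3g, a secreted semaphorin gene (chr14:31217623-31217922, plus strand), Epsti1, an interferon-induced gene (chr14:77903989-77904288, plus strand), Iqca (chr1:90153387-90153686, minus strand) and the non-coding Gm38797 (chr6:42310883-42311182, minus strand). A closed region lay over the start of Tbc1d1, a Rab GTPase-activating protein gene (chr5:64160010-64160309, plus strand). The line for Lef1 is the internal start nearest to its opened region (chr3:131156044-131156343, plus strand). Each is RefSeq's window on GRCm38.p6 from 250 bases before to 50 bases after the start, read 5′ to 3′ on the gene's strand. Capitals mark matches to the motifs searched, on either strand. None of the 6 printed genes is at one of the 30 best-ranked opened regions, and they were chosen for printing after their values were seen.
Sema3g: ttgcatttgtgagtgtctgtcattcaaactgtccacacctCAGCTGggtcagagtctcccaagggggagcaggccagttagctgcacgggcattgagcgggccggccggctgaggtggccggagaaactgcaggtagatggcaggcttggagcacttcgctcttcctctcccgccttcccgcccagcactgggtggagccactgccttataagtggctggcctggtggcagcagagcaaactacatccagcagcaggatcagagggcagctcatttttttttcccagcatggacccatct
Epsti1: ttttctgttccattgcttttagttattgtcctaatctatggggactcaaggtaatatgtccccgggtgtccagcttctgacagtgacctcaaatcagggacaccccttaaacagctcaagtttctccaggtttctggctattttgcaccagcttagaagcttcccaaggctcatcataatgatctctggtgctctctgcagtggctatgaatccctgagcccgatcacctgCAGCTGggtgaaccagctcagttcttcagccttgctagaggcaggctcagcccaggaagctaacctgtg
Iqca: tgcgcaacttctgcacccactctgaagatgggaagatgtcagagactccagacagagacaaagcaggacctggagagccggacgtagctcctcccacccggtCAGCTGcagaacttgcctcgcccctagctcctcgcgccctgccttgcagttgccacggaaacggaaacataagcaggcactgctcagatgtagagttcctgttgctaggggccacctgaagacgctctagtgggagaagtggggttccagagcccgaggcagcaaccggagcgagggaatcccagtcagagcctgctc
Gm38797: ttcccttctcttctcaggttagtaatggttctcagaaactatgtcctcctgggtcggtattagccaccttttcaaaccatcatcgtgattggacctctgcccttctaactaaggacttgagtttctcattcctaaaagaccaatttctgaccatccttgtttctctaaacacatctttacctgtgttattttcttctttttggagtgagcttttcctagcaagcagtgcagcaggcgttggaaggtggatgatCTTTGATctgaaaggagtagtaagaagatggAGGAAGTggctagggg
Tbc1d1: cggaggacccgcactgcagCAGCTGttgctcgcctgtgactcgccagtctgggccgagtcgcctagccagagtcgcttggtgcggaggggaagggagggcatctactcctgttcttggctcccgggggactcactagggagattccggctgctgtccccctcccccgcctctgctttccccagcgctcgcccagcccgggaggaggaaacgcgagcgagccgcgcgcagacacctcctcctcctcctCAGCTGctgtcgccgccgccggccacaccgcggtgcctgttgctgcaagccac
Lef1: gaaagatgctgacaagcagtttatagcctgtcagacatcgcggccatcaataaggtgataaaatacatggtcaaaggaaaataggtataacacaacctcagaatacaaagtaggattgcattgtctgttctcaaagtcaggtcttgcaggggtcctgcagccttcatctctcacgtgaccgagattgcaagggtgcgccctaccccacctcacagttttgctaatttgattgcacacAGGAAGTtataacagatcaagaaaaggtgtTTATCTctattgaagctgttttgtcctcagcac

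The motifs were short core letters, counted in the windows of all 31396 autosomal starts. The TCF/LEF letters CTTTGAT were in 3.76% of windows and CTTTGAA in 5.09%. The GATA factor letters AGATAA were in 11.2%. RUNX letters, TGTGGTT, were in 5.32% of windows. ETS letters, AGGAAGT, were in 9.37% and the AP-1 letters TGANTCA in 7.84%. For HOXA9 with MEIS, TGATTTA was in 2.95%. The TAL1 E-box CAGCTG was in 16.3% and the CTCF core AGGGGGC in 10.7%. Of the 7 windows that lay on 6 opened regions, 1 held CTTTGAT, 0 held CTTTGAA, and 3 held each of CAGCTG and AGGAAGT. Of the 4 windows on closed regions, 1 held CAGCTG and none held any of the other 8 motifs. A match to CTTTGAT can overlap one to TGATTTA. With so few windows, no share of them is given.

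The libraries differed in depth and peak width along with genotype, which bears on every count given here. Background depth, recovered from fold and p at each summit, stood at 7.38 and 6.29 reads per kb for WT, against 9.61 and 9.82 for Bcat_KO. WT had 34583 and 27536 autosomal peaks and Bcat_KO 42260 and 44412. The shortest peaks were 183 and 164 bp in WT and 137 and 126 bp in Bcat_KO, and the median peak was 462 and 412 bp against 339 and 310 bp. Over a window of peaks ending at rank 13768, the middle of the cut lists, the median fold over local background was 6.75 and 6.83 in WT. In Bcat_KO it was 8.13 and 8.68. The single peak at that rank had a fold of 7.23 and 5.66 in WT and 8.63 and 7.43 in Bcat_KO. Fold values therefore describe a peak in its own library, and comparisons between groups rest on ranks. Both Bcat_KO libraries had peaks on the male-specific part of chromosome Y and neither WT library did, so a possible difference in sex cannot be told apart from genotype. The parts of depth, width and sex in the results were not tested. With 2 libraries against 2, the smallest exact two-sided permutation p is 0.333, and regions are therefore described without a test.

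Among the LSK markers, chromatin at Kit, the stem cell factor receptor, Cd34, a sialomucin, and Flt3, a receptor tyrosine kinase of multipotent progenitors, was open in all 4 libraries. Kit had 7 regions, and its 2 shared ones were not separated between the groups. Ly6a, which encodes Sca-1, had no region in any of the 4 lists. Procr had 3 regions, none of them shared. Markers of other lineages also had open regions, of which few were shared: 7 at 15 erythroid genes, 6 at 15 megakaryocyte genes, 6 at 17 granulocyte or monocyte genes, 5 at 14 B cell genes, 5 at 16 T or NK cell genes and 7 at 12 stromal or endothelial genes. The gene of β-catenin itself, Ctnnb1, had a shared region at its start (chr9:120933203-120934035) that ranked 7000 and 7548 in WT and 8813 and 11515 in Bcat_KO. Which part of the gene was removed is not given, so this peak does not check the genotype.

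The closed regions had middling ranks in WT. Of the 36, 20 still had a weak peak in both Bcat_KO libraries, 8 had one in a single library and 8 had none. The Bcat_KO lists hold 42260 and 44412 peaks, so they can show such weak peaks beyond the cut. Their fold in WT was moderate, with medians of 7.75 and 7.33, and 17 to 34 reads at the summit in WT replicate 1 and 13 to 24 in replicate 2. No closed region lay within the strongest 25% of the cut lists in both WT libraries. The best ranks were 5461 and 6126. Where Bcat_KO kept a peak, its median fold was 4.59 and 4.47, and 24 closed regions had one in each library. The closed regions were 260 to 1407 bp wide, with a median of 549.5 bp.

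**Figure D1:**
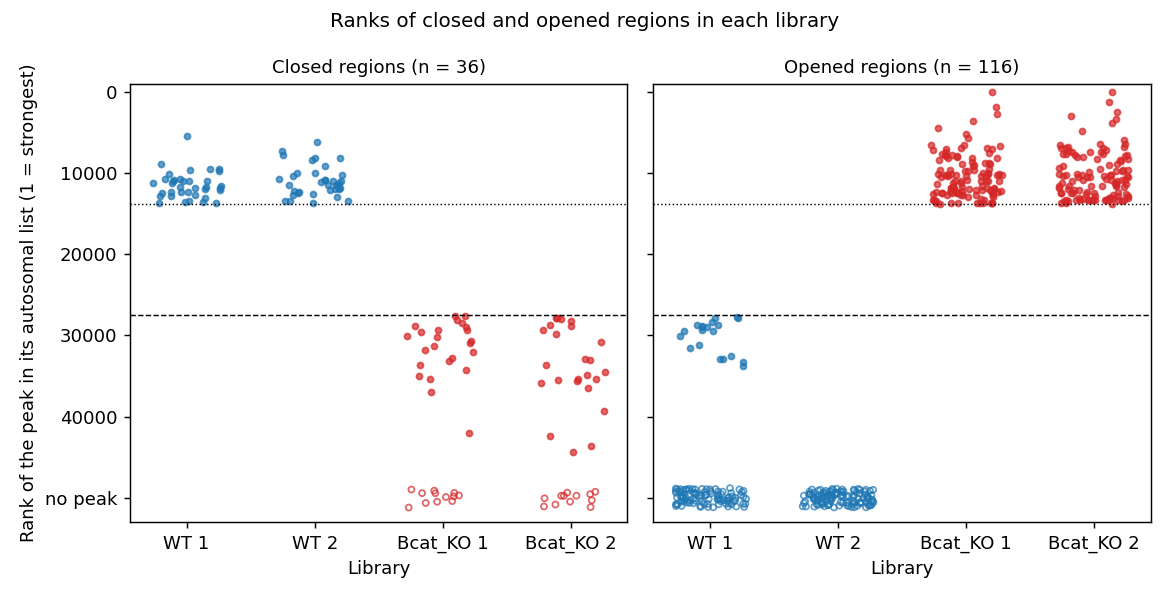
Rank of each closed region (left, n = 36) and each opened region (right, n = 116) in the 4 libraries, with open circles for regions without a peak. The dotted line marks rank 13768 and the dashed line rank 27536. Weak Bcat_KO peaks lie below the dashed line at 20 of the closed regions in both libraries. The list of WT replicate 2 ends at that line, so no point of it can lie below.

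The closed region of best mean WT rank lay 952 bp from the start of the non-coding gene 4930590L14Rik (chr3:140950116-140950883). It ranked 5461 and 7264 in WT and 30723 and 35552 in Bcat_KO, with a WT fold of 10.5 ± 1.25 (SD, n = 2). The next lay 1.38 kb beyond Marveld2 (chr13:100593808-100594578), which encodes tricellulin, a protein of epithelial tight junctions. It ranked 9464 and 6126 in WT and 30220 in Bcat_KO replicate 1, without a peak in replicate 2. At the start of Gm32687 (chr10:81863394-81863891) the ranks were 8833 and 8421 in WT and 33091 and 34830 in Bcat_KO. These 3 had the best mean WT ranks of the closed set, and all 3 kept a weak peak in at least 1 Bcat_KO library.

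Of the other 9 among the 12 closed regions of best mean rank, 3 had no peak in Bcat_KO and 1 had a peak in a single library. Gadl1, an acidic amino acid decarboxylase gene, had a region inside it (chr9:116058979-116059438) at ranks 9813 and 7811 in WT and no peak in Bcat_KO. Nwd1, a gene of the NACHT and WD repeat family, had one inside it (chr8:72665183-72665971) at 9648 and 11245 in WT and none in Bcat_KO. The region 5.01 kb from Gm34676 (chr6:55710892-55711270) ranked 10929 and 11046 in WT and was also absent from Bcat_KO. On chromosome 18, a region without a gene within 50 kb (chr18:87009357-87009962) ranked 10953 and 9176 in WT and 27582 in Bcat_KO replicate 1, just past the cut.

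The other 5 of the 12 kept a weak peak in both Bcat_KO libraries. Inside Chst15, a chondroitin sulphate sulphotransferase gene (chr7:132242528-132243279), ranks were 12342 and 8109 in WT and 32037 and 27952 in Bcat_KO. A region 38.3 kb from Ccdc7a (chr8:128941194-128941692) ranked 9486 and 11058 in WT and 34265 and 29282 in Bcat_KO. The region 4.19 kb from Klra10 (chr6:130287833-130288555), a Ly49 receptor gene of natural killer cells, ranked 10776 and 9974 against 30962 and 42362. Tmem131, a gene of collagen secretion, had a region inside it (chr1:36919705-36920592) at 13088 and 8178 in WT and 28531 and 27829 in Bcat_KO. Shld1, a subunit of shieldin, which protects DNA ends at double-strand breaks, had a region inside it (chr2:132695641-132696189) at 11187 and 9967 in WT and 31735 and 35455 in Bcat_KO. Of these 5, Klra10 reached the weakest Bcat_KO rank and Tmem131 stayed nearest to the cut.

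Only 1 other closed region lay at a gene of the fixed lists, the start of Cdh2, which encodes N-cadherin (chr18:16808152-16809076). It ranked 13478 and 10884 in WT and 29767 in Bcat_KO replicate 2, with no peak in replicate 1. Further closed regions lay inside Ryr3, Dock9, Gm29677, Mir99ahg, Runx1t1, Gm12610, Pdzph1, Otogl, Arhgef37, Slc14a1, Draxin, Ifit1bl1 and Zfp831, at the starts of Gm34441, Tbc1d1 and Gm46266, and within 50 kb of Camk1g, Slc4a7, Cdc123, Klra3 and Vmn1r28. Of these, Gm34441, Runx1t1, a gene of the ETO corepressor family, Otogl and Draxin had no peak in Bcat_KO. The other 2 regions without a gene within 50 kb began at 15836694 on chromosome 19, with weak peaks in both Bcat_KO libraries, and at 118269096 on chromosome 13, with none. The closed regions near Klra10 and Klra3 began at 130287833 and 130341570, and those at Gm34441 and Gm34676 were 174 kb apart. Chromosomes 6 and 18 held 5 closed regions each, 13.9% of the closed set, against 5.89% and 3.03% of the regions within rank 13768 in both WT libraries.

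The opened regions were more numerous than the closed ones and narrower. Of the 116, 20 had a weak peak in WT replicate 1 and 96 had no WT peak. The length of the WT lists bears on these counts: WT replicate 2 lists nothing beyond the cut, and WT replicate 1 lists 34583 peaks in all. The fold of opened regions in Bcat_KO was 9.27 and 9.84 at the median, and 93 had a mean fold of 8 to 12. Median reads at the summit were 24 and 26. Opened regions were 148 to 767 bp wide, with a median of 391 bp, and 11 were under 200 bp. The 96 without a WT peak were built from Bcat_KO peaks alone. Bcat_KO lists had narrower peaks, with medians of 339 and 310 bp against 462 and 412 bp in WT. The part of this in the widths was not tested.

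**Figure D2:**
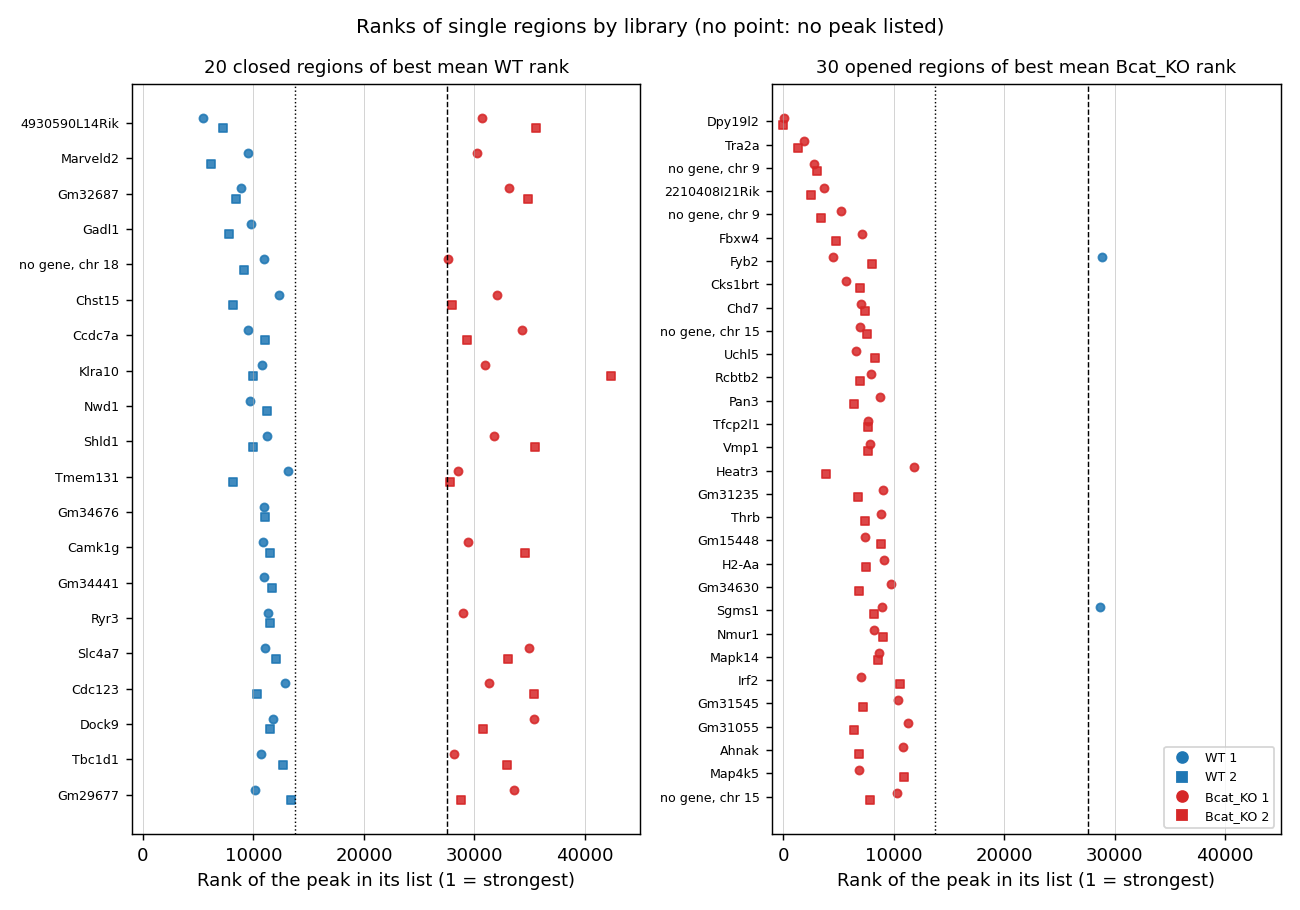
Rank in each library of the 20 closed regions of best mean WT rank (left) and the 30 opened regions of best mean Bcat_KO rank (right), by nearest gene within 50 kb. Dotted and dashed lines mark ranks 13768 and 27536, and a missing point means no listed peak. Of these 30 opened regions, those at Fyb2 and Sgms1 have a WT point.

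The strongest opened regions were narrow ones. A region of 148 bp, 14.9 kb from Dpy19l2 (chr9:24542013-24542160), ranked 27 and 25 in Bcat_KO with a fold of 44.2 ± 3.47 (SD, n = 2). One of 150 bp, 7.32 kb from the splicing factor gene Tra2a (chr6:49236456-49236605), ranked 1881 and 1305. Inside 2210408I21Rik (chr13:77438908-77439057) another of 150 bp ranked 3652 and 2552. A region of 182 bp on chromosome 9 without a gene within 50 kb (chr9:3022063-3022244) ranked 2775 and 3020 at a fold of only 2.07 and 2.19, with up to 526 reads at the summit. The widths of 148 and 150 bp were close to those of the shortest peaks in the Bcat_KO lists, 137 and 126 bp. The width of 182 bp was farther from them. Sequence that maps poorly was not filtered out, and its part in these regions was not tested.

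Wider opened regions of best rank lay inside or near genes of several kinds, without a peak in WT unless stated. Fbxw4, an F-box gene, had a region inside it (chr19:45649978-45650215) at ranks 7132 and 4807. Chd7, a chromatin remodeller gene, had one (chr4:8811116-8811421) at 7059 and 7378, and Uchl5, a proteasomal deubiquitinase gene, had one (chr1:143803660-143803896) at 6559 and 8296. Inside Vmp1, a gene of autophagosome formation (chr11:86592983-86593556), ranks were 7817 and 7651. The libraries of Bcat_KO differed most at Fbxw4 and least at Vmp1.

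Transcription factor and signalling genes followed. Thrb, which encodes a thyroid hormone receptor, had an opened region inside it (chr14:17911221-17911654; ranks 8837 and 7406). One lay 1.56 kb beyond Irf2, an interferon regulatory factor gene (chr8:46849017-46849232; ranks 7043 and 10534). Tfcp2l1, a transcription factor gene of pluripotent cells, had one 26.4 kb away (chr1:118711594-118711950; ranks 7703 and 7713). Another lay 2.14 kb beyond Mapk14, the p38α kinase gene (chr17:28750544-28750962; ranks 8710 and 8553), and another inside Map4k5 (chr12:69864369-69864663; ranks 6899 and 10967). H2-Aa, an MHC class II gene, had one 5.76 kb away (chr17:34293579-34293891; ranks 9149 and 7461).

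Weak WT peaks were present at Fyb2, an adaptor gene (rank 28883 in WT replicate 1 against 4504 and 8031 in Bcat_KO), and at Sgms1, a sphingomyelin synthase gene (28678 against 8944 and 8221). The rest of the 30 best-ranked lay at or near Cks1brt, Rcbtb2, Pan3, Heatr3, Gm31235, Gm15448, Gm34630, Nmur1, Gm31545, Gm31055 and Ahnak, at 1 further place on chromosome 9 and at 2 on chromosome 15 without a gene within 50 kb. Their ranks ran from 3393 to 11830. Heatr3 had the widest spread between the libraries, at ranks 11830 and 3901. The opened region inside Pan3 (chr5:147426428-147426732; ranks 8744 and 6449) lies 25.9 kb from Flt3, whose own regions are described below.

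Among Wnt pathway genes, Lef1 and Axin1 had an opened region. Lef1, a DNA-binding partner of β-catenin and itself a Wnt target, had it inside the gene (chr3:131157381-131157835), 1.09 kb past the internal start printed above. It ranked 11927 and 7276 in Bcat_KO, with a fold of 9.66 ± 1.99 (SD, n = 2), and had no peak in WT. Axin1, the scaffold of the destruction complex, had one inside the gene (chr17:26167982-26168468) at 11802 and 10091 and a fold of 10.3 ± 1.19 (SD, n = 2), also without a WT peak. Among all list genes, the only others with an opened region were the stromal gene Col1a2, which encodes a collagen chain, 21.0 kb from one (chr6:4484129-4484614; ranks 10239 and 9631), and Ier2, an immediate early gene of a list added after values were seen. The region at Ier2 lay 743 bp from its start (chr8:84659906-84660588) and ranked 12517 and 11286. Outside the lists, an opened region lay 907 bp from an annotated start of Dnmt3a, a DNA methyltransferase gene (chr12:3892651-3893183), at 11187 and 13215 in Bcat_KO and 31608 in WT replicate 1. That gene was chosen after its values were seen.

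Opened regions were spread unevenly over chromosomes. Chromosome 8 held 14, which is 12.1% of the opened set, against 5.72% of the regions within rank 13768 in both Bcat_KO libraries. Chromosome 19 held 8, or 6.90%, against 2.67%, and chromosome 16 held 0 against 3.77%. Only 1 pair of opened regions lay within 10 kb of each other, 2 regions upstream of Egfl7, an endothelial gene and the host of a microRNA, 6.08 kb apart (chr2:26571483-26572249 and chr2:26578330-26578790). They ranked 12119 and 10233, and 8016 and 10436. These chromosomes and Egfl7 were picked after their values were seen.

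The thresholds divide regions of like values. The last closed region inside, at Zfp831, ranked 13642 and 13735 in WT, and the first outside, at Lsamp, 13167 and 13777. For the opened set, the last inside was at Arhgef10 (13766 and 13366) and the first outside at a second site of Uvrag (13825 and 11461). Among regions past 27536 or absent on the other side, 1617 ranked within 27536 in both WT libraries and 2024 did so in both Bcat_KO libraries, so the called regions are the upper end of a longer series. On the other threshold, the closed region nearest to the cut ranked 27582 in Bcat_KO replicate 1, and the first outside, at Hhat, 27521 in replicate 2.

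Changed regions lay away from gene starts. Where a gene had no annotated start window, either of its ends counted as a start throughout. Of the closed regions, 6 (16.7%) lay within 1 kb of a start, 18 inside a gene, 9 between genes with one within 50 kb and 3 farther away. Of the opened regions these numbers were 8 (6.90%), 68, 33 and 7. Regions within rank 13768 lay near a start in 69.1% of cases in WT and 63.0% in Bcat_KO. Both sets were thus poorer in gene starts than all regions within rank 13768 of the same group. For the closed set this depended on the cut: at a −log10 q of at least 5, 18 regions were closed and 66.7% of them lay near a start, and in lists cut to 13768 peaks 7 were closed and 57.1% lay near a start. The opened share was 9.62% and 10.0% under these cuts. Of the regions near a start in these ranks, 0.109% were opened, against 2.60% of those inside genes. For closing, the shares were 0.0753% near a start and 0.859% inside genes. None of these comparisons was matched for rank. The closed set had median WT ranks of 11764.5 and 11361.5, and the opened set median Bcat_KO ranks of 10986.5 and 10842.5. Among shared regions, the share near a start was 84.6% at mean ranks up to 4752.75 and 44.2% at 9464.25 to 14602.5. The part of rank in the low share of starts was not tested.

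The ranks of the groups overlapped at most of the shared regions. Of the 17507, 3807 ranked higher in both Bcat_KO libraries than in both WT libraries, 21.7% of the shared regions, and 4657 ranked lower in both, 26.6%. The other 9043 (51.7%) were not separated. These counts depend on the cut: with uncut lists, where a rank is a share of its list's own length, 8981 ranked higher and 1590 lower. They also grow with any library left out, to 6462 and 7343 without WT replicate 1, 6758 and 7490 without WT replicate 2 at the same cut, 6148 and 7535 without Bcat_KO replicate 1 and 6233 and 7525 without Bcat_KO replicate 2. The median difference in rank was 6.44% of the list length between the WT libraries, 6.60% between the Bcat_KO libraries and 8.33 to 8.65% between libraries of different groups. Few shifts were large: groups stood apart by at least 25% of the list length at 228 regions that ranked higher and 225 that ranked lower.

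Direction differed by location. Near gene starts, 32.1% of 9979 shared regions ranked lower in Bcat_KO and 15.4% higher, with a median shift of −1.68% of the list length. With uncut lists this median turned to 2.80%, and that inside genes was 11.7%. A positive shift means a stronger rank in Bcat_KO. Inside genes, 31.4% of 4537 ranked higher and 17.9% lower, with a median shift of 3.00%. Between genes, 28.7% of 2559 ranked higher and 21.0% lower, and with no gene within 50 kb the shares of 432 regions were 25.9% and 24.5%. These shares are of ranks in one list, so a gain in one class lowers another.

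**Figure D3:**
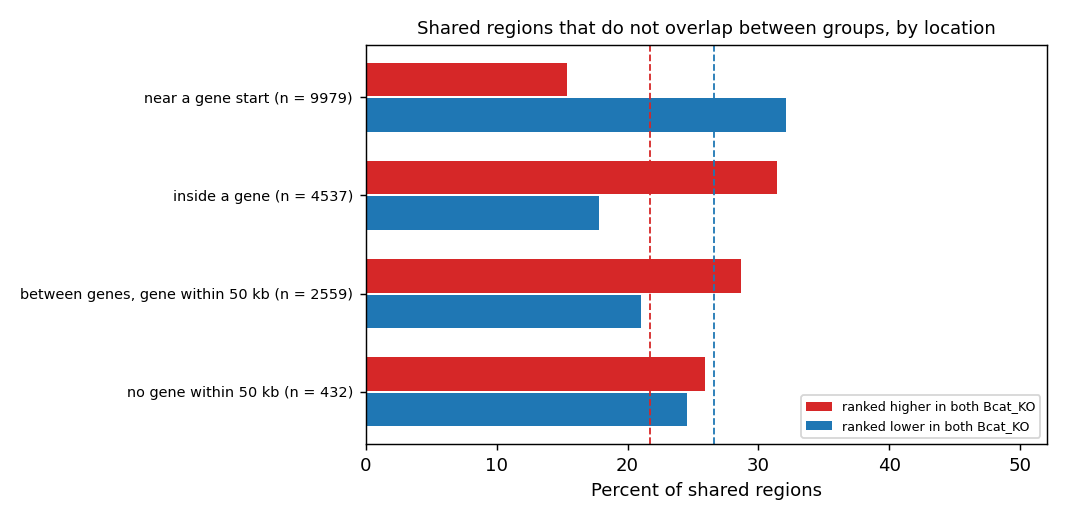
Percent of shared regions that ranked higher (red) or lower (blue) in both Bcat_KO libraries than in both WT libraries, by location, with the number of regions in brackets. Dashed lines give the shares over all shared regions, 21.7% and 26.6%. Gene starts show more lower than higher regions (32.1% against 15.4%), and regions inside genes the reverse.

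The same tilt appeared in each library's own list. Gene starts took 84.85 ± 0.693% (SD, n = 2) of the strongest 5000 peaks in WT and 77.86 ± 1.10% (SD, n = 2) in Bcat_KO, and the groups did not overlap (exact two-sided permutation p = 0.333, the smallest possible). Of the strongest 27536, the shares were 44.8 ± 0.791% and 42.6 ± 0.398% (SD, n = 2 each; exact permutation p = 0.333). Wide regions ranked lower more often, and region width differs between the groups' lists. Within classes of equal number by width, the share of gene-start regions that ranked lower was 24.4, 30.7, 35.7 and 37.6% from narrow to wide, and the share that ranked higher stayed under it in each class, at 19.6, 15.2, 13.9 and 12.8%. Among regions inside genes, more ranked higher than lower in each of the 4 width classes, by 33.6 against 14.6% in the narrowest and 24.8 against 23.1% in the widest.

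Base composition went with the shift at gene starts. Over 4 classes of promoter GC content from low to high, the share of shared start regions that ranked lower in Bcat_KO was 29.2, 29.4, 32.5 and 40.2%, and the share that ranked higher was 19.4, 17.4, 12.2 and 9.92%. Start regions with the ETS letters AGGAAGT ranked lower in 27.0% of 678 cases and higher in 20.5%, against 33.3% and 14.2% without them. With the RUNX letters TGTGGTT, 30.1% of 272 ranked lower and 22.4% higher, against 32.8% and 14.5% without. The CTCF core AGGGGGC went the other way, with 37.2% of 1354 lower and 10.7% higher, against 31.8% and 15.6% without. Shares for the GATA, AP-1, HOXA9 with MEIS and TAL1 E-box letters are not reported here. With the TCF/LEF letters CTTTGAT, 27.1% of 177 ranked lower and 17.5% higher, against 32.9% and 14.7% without. With the other TCF/LEF letters, CTTTGAA, 31.5% of 238 ranked lower and 16.4% higher, against 32.8% and 14.7% without. These are descriptions of letters in windows that also differ in GC content.

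The largest gains in rank among shared regions were at distal and intronic sites. A region 27.2 kb from Dynlt1b, a dynein light chain gene (chr17:6467745-6468575), ranked 24572 and 25526 in WT and 5030 and 3943 in Bcat_KO, a shift of 74.7% of the list length. Inside Arhgap10 (chr8:77451499-77452083), ranks were 25104 and 24301 in WT and 5060 and 6092 in Bcat_KO. Inside Stk10, a lymphocyte kinase gene (chr11:32558409-32559160), they were 21095 and 18041 against 3126 and 3196. In all 3 the groups lay apart by at least 53.9% of the list length. These regions were taken as the largest shifts among separated ones, so a wide gap follows from that choice. The Stk10 region ranked 5146 and 5508 in HOXA9_KO and 3448 and 5353 in PRMT1_KO, and the Dynlt1b region 7870 and 7253, and 15995 and 12370. The Arhgap10 region ranked 29696 and 30945 in HOXA9_KO and 25344 and 22736 in PRMT1_KO.

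Flt3 and Egr1 were also among these 12. A region inside Flt3 (chr5:147366138-147366770) ranked 20895 and 20227 in WT and 4358 and 4566 in Bcat_KO. The same region ranked 12166 and 8925 in HOXA9_KO and 5037 and 2609 in PRMT1_KO. A region 4.67 kb from Egr1, an immediate early transcription factor gene that restrains stem cell division (chr18:34856208-34856540), ranked 17541 and 20168 in WT and 2941 and 4308 in Bcat_KO, with 3939 and 4688 in HOXA9_KO and 7166 and 4074 in PRMT1_KO. These 2 sites were picked for weak WT ranks against Bcat_KO, and the other genotypes were read against the same WT libraries. Their stronger ranks here are therefore not a separate result, and differences between the genotypes were not tested. The others lay at Nckap5l, Gtf2i, Frmd6, A930005H10Rik, 2310015A16Rik and Mras and at a site on chromosome 10 without a gene within 50 kb, with shifts of 55.2 to 62.0%.

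The largest losses in rank lay at gene starts and elsewhere. Inside Fhad1, a gene of the forkhead-associated domain family (chr4:141993846-141994596), ranks were 8984 and 6108 in WT and 27022 and 24562 in Bcat_KO, a shift of −66.3%. This region ranked 30019 and 34135 in HOXA9_KO and 12061 and 10381 in PRMT1_KO. Inside 2900026A02Rik they were 5535 and 8862 against 23708 and 25431. At the start of Galnt9, an N-acetylgalactosaminyltransferase gene (chr5:110544218-110544830), they were 7515 and 8960 against 24066 and 24210, and at the start of Gpat3, an enzyme gene of triglyceride synthesis (chr5:100845947-100846966), 6117 and 9501 against 21179 and 24234. Others lay at Gm32131, Pyroxd2, Gm40678, Gm52493, 9830132P13Rik and Cstl1 and at a site on chromosome 12 without a gene within 50 kb, with shifts of −53.4 to −58.4%. Gene starts made up 4 of these 12 and none of the 12 largest gains. Of all shared regions, 57.0% lay near a start, as did 68.8% of those lower and 40.3% of those higher in Bcat_KO. The 12 losses were thus not rich in starts. Shared starts had median WT ranks of 21.9% and 22.0% of the list length, and no region can gain more than its own rank.

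At Flt3, 5 of 8 regions were shared. All 5 ranked higher in both Bcat_KO libraries, with a median shift of 28.6%. From the 3′ side to the start, WT ranks were 11992 and 15843 at the first, 17091 and 19411 at the second, 20895 and 20227 at the third, 13493 and 15264 at the fourth and 2470 and 4906 at the start. The Bcat_KO ranks in the same order were 4324 and 7779, 9985 and 9556, 4358 and 4566, 9212 and 12962, and 1645 and 1485. No Bcat_KO library overlapped WT at any of the 5. Of 311 protein-coding genes with at least 4 shared regions, 4 (1.29%) had all of them higher in Bcat_KO: Flt3, Meis1, a homeobox cofactor of Hoxa9, Pld3, a lysosomal nuclease gene, and Coro7, an actin-regulating coronin gene. Another 1 (0.322%), the uridine-cytidine kinase gene Uck2, had all of them lower.

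The 4 shared regions of Meis1 included a large shift at 1 intronic site. That site (chr11:18948723-18949337) ranked 19056 and 24321 in WT and 10142 and 11613 in Bcat_KO, while the start ranked 7349 and 5155 in WT and 4185 and 4739 in Bcat_KO. At Pld3 the median shift was 21.8%, at Coro7 27.8% and at Uck2 −15.0%. These 5 genes were chosen after their values were seen.

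**Figure D4:**
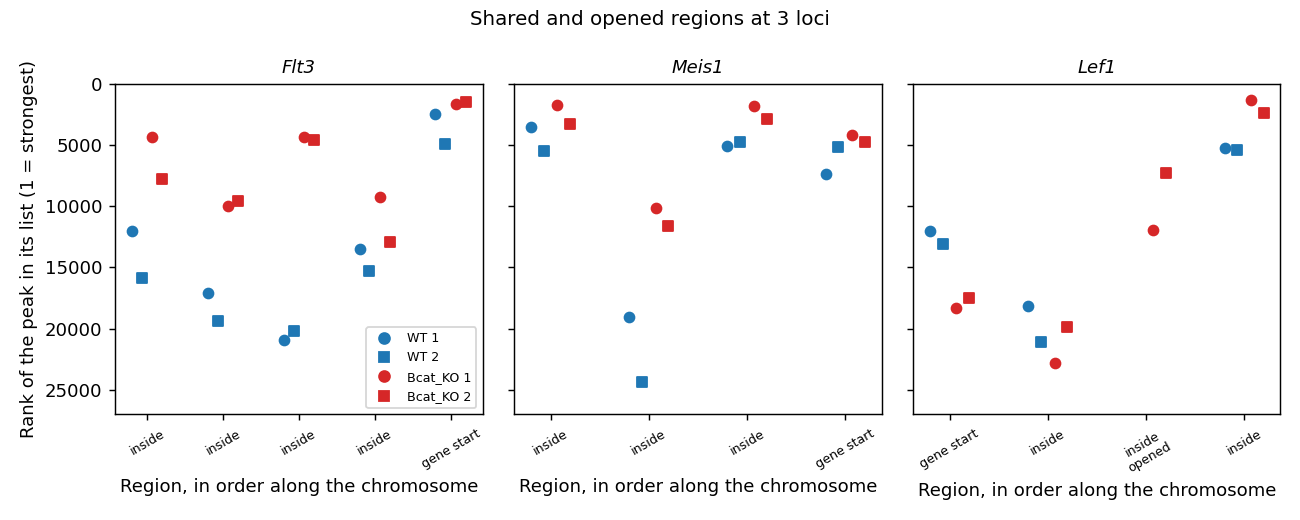
Rank in each library of the shared regions of Flt3 and Meis1 and of the shared and opened regions of Lef1, in order along the chromosome, with the strongest rank at the top. Every shared region of Flt3 and Meis1 has both Bcat_KO points above both WT points. At Lef1 the start has them below (18349 and 17470 against 12018 and 13072) and the last intronic region above.

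At Lef1, 1 shared region ranked higher in Bcat_KO, 1 lower and 1 was not separated. The shared region at a start (chr3:131111984-131112582) ranked 12018 and 13072 in WT and 18349 and 17470 in Bcat_KO. The 3′-most shared region (chr3:131208276-131209172) ranked 5248 and 5448 in WT and 1343 and 2408 in Bcat_KO. The shared region between them was the one not separated, and a region near the 3′ end (chr3:131214664-131215306) had peaks at 24816 and 23922 in WT and none in Bcat_KO. Tcf7l2, another DNA-binding partner of β-catenin, had a start that ranked lower and an intronic region that ranked higher: the start ranked 7297 and 6110 in WT and 11889 and 15299 in Bcat_KO, and an intronic region (chr19:55768909-55769305) ranked 27355 and 19024 in WT and 13260 and 16089 in Bcat_KO. Tcf7 had no shared region, and the start of Tcf7l1 was not separated.

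Over 40 Wnt pathway genes, 48 regions were shared, of which 10 ranked higher and 15 lower in Bcat_KO. At gene starts the counts were 3 higher and 14 lower of 32, and elsewhere in the genes 7 higher and 1 lower of 16. Over all shared regions, 15.4% near starts ranked higher and 32.1% lower, and inside genes 31.4% and 17.9%, so starts and gene bodies differed in this way over the genome. Destruction complex genes gave both directions. Apc ranked lower, at 5212 and 4576 in WT and 10583 and 11845 in Bcat_KO, as did Csnk1a1, a casein kinase gene, at 1033 and 1461 against 2526 and 2323. The shared region within Axin1, at the start of the non-coding Gm46600 (chr17:26138326-26139196), ranked 5231 and 5620 in WT and 3354 and 4475 in Bcat_KO.

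Receptor genes divided as well. The Frizzled genes Fzd4 (2598 and 1274 in WT against 5243 and 4362 in Bcat_KO) and Fzd5 (1689 and 1191 against 3143 and 3776) ranked lower at their starts. Fzd8 ranked higher at its start, at 15258 and 15747 in WT and 8212 and 5981 in Bcat_KO. The starts of Fzd1, Fzd3, Fzd6, Fzd7 and Fzd9 were not separated. Lrp6 ranked lower at its start (4195 and 4504 against 7939 and 5824) and higher at an intronic region (chr6:134558715-134559228), from 23649 and 12402 in WT to 7124 and 6317 in Bcat_KO, the highest shift of the list at 41.1%. The lowest was −30.6%, at a region 699 bp beyond Wls, the gene of the Wnt secretion factor (chr3:159939365-159939684), with ranks of 7306 and 5658 in WT and 18991 and 10830 in Bcat_KO. Bcl9, a β-catenin coactivator gene, had 2 intronic regions that ranked higher and a start that ranked lower.

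Wnt targets and feedback genes gave as many higher as lower regions, close to the shares over all shared regions, 21.7% higher and 26.6% lower. Over the genome, 15.4% of shared regions near starts ranked higher and 32.1% lower, and inside genes 31.4% and 17.9%. Of 22 shared regions at 27 genes, 5 ranked higher and 5 lower. At starts 1 ranked higher and 5 lower of 15, and elsewhere 4 ranked higher and 0 lower of 7. The start of Axin2, a feedback inhibitor often used as a Wnt reporter, ranked 7905 and 13824 in WT and 15489 and 16194 in Bcat_KO. The start of Myc was not separated, at 3879 and 6652 against 6931 and 5684, and Ccnd1 and Lgr5 had no shared region. The extremes were Jun at 42.4%, at a region inside the gene (chr4:95048302-95049780), and Ppard at −25.9%, at its start.

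Stem cell genes gave more higher than lower regions. Over the genome, 15.4% of shared regions near starts ranked higher and 32.1% lower, and inside genes 31.4% and 17.9%. Of 45 shared regions at 25 autosomal stem cell transcription factor genes, 18 ranked higher and 9 lower. At starts 8 ranked higher and 8 lower of 22, and elsewhere 10 higher and 1 lower of 23. Gata2 had a region inside it (chr6:88203044-88203612) at 18942 and 15423 in WT and 9318 and 7495 in Bcat_KO, and the start of Foxo3 at chr10:42277420-42278390 ranked 5871 and 3692 against 1682 and 1734. The shifts of the list ran from 39.3% at the intronic site of Meis1 to −21.6% at a start of Ldb1, an adaptor gene of the stem cell factors. Of 17 shared regions at 20 stem cell surface genes, 8 ranked higher and 2 lower, and 5 of the 8 came from Flt3. At the starts of these genes 3 ranked higher and 2 lower of 9. Cd34 ranked higher at its start, from 7288 and 5459 in WT to 3919 and 3419 in Bcat_KO, and its 2 intronic regions were not separated. The start of Cxcr4, a homing receptor gene, was not separated either, and the lowest shift of the list was −18.9%, at a region inside Cd9 that is also a start of Gm28809.

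Hox cofactor and Hoxa cluster genes had 12 shared regions, 4 higher and 5 lower. Over all shared regions, 21.7% ranked higher and 26.6% lower, and near starts 15.4% and 32.1%. DNA replication genes, whose function the series' title names, had 53 shared regions with 8 higher, 12 lower and a median shift of 0.51%. Of these 53, 48 lay near starts, with 6 higher and 11 lower. The extremes were Cdc6, a replication licensing gene, at 19.4%, and a region at Timeless at −22.0%. DNA repair and checkpoint genes had 45, with 13 higher, 16 lower and a median shift of −1.34%. Rad51b, a homologous recombination gene, supplied both extremes: 29.0% inside the gene and −32.1% at a start. The neighbouring region (chr12:79295981-79296636), at the start of Zfyve26, ranked higher, at 14594 and 10500 in WT and 4160 and 7803 in Bcat_KO.

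For the lists that follow, the shares over all shared regions were again 21.7% higher and 26.6% lower, and near starts 15.4% and 32.1%. Of 8 shared regions at protein arginine methyltransferase genes, 2 ranked higher and 2 lower, from 4.36% at Prmt5 to −16.9% at Prmt6. Of 17 at p53 targets, 2 ranked higher and 2 lower, from 23.0% at Perp to −33.1% at Bbc3, which encodes Puma. The Bbc3 region ranked 11179 and 12274 in WT and 26730 and 14959 in Bcat_KO, so the Bcat_KO libraries lay far apart. Immediate early genes, a list added after values were seen, had 29 shared regions with 9 higher and 3 lower. The start of Egr1 ranked 6448 and 6463 in WT and 1563 and 3580 in Bcat_KO, and the region at the start of Junb had the lowest shift, −18.3%. That Junb region ranked 7535 and 7557 in WT and 8942 and 16217 in Bcat_KO.

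Lineage genes gave few shared regions, to be read beside the 21.7% higher and 26.6% lower over all shared regions. Erythroid genes had 1 region higher and 3 lower of 7, from Tfrc at 6.84% to Sptb at −28.2%. Megakaryocyte genes had 1 and 2 of 6, from Vwf at 11.1% to Rab27b at −18.8%. Granulocyte or monocyte genes had 2 and 2 of 6: the start of Spi1, the gene of the myeloid factor PU.1 (chr2:91082572-91083508), ranked 8807 and 11389 in WT and 4201 and 4391 in Bcat_KO, while a region inside Fcgr3 shifted by −19.9%. B cell genes had 1 and 0 of 5, from Dntt at 15.3% to Blnk at −10.7%, and T or NK cell genes 2 and 1 of 5, from Cd2 at 36.6% to Lck at −29.7%. The Dntt region ranked 17101 and 17326 in WT and 16980 and 9013 in Bcat_KO. Stromal or endothelial genes had 3 and 1 of 7, and the extremes, 21.6% and −19.5%, were both inside Runx2. The cell composition of the libraries was not tested by these counts.

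**Figure D5:**
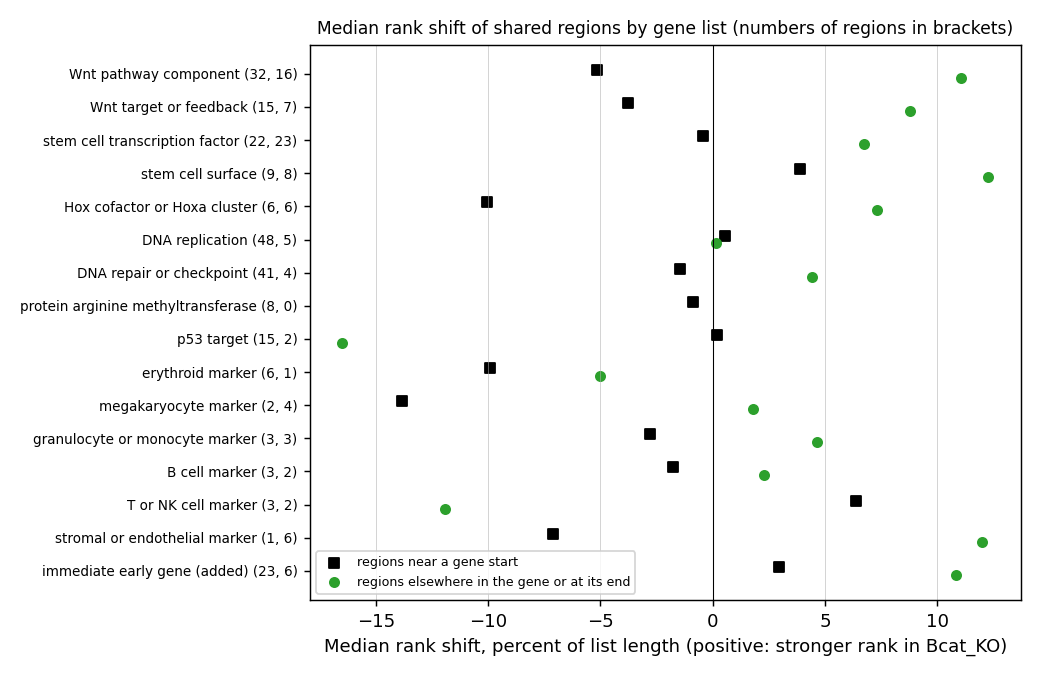
Median rank shift of shared regions for each gene list, in percent of the list length, with regions near a gene start as squares and regions elsewhere as circles. The numbers in brackets are the regions behind each symbol. In the Wnt pathway list the starts have a median of −5.17% and the other regions 11.1%.

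The 5 libraries of the other genotypes did not enter the rule and were read at the same ranks. Opened regions ranked within 27536 at 86 and 96 of 116 in the HOXA9_KO libraries and at 104 and 94 in the PRMT1_KO libraries. Of the regions within rank 13768 in both Bcat_KO libraries, 98.9 to 99.6% did so. Of the closed regions, 16 and 25 of 36 ranked within 27536 in HOXA9_KO and 21 and 19 in PRMT1_KO, and of the regions within rank 13768 in both WT libraries 98.4 to 99.4% did so. The opened region of Lef1 ranked 7510 and 8791 in HOXA9_KO and 6703 and 9359 in PRMT1_KO, and that of Axin1 14612 and 16197, and 9705 and 12375. The closed region at Shld1 ranked 29538 and 26942 in HOXA9_KO and had no peak in PRMT1_KO. The single dKO library of β-catenin and Hoxa9, with a background depth of 2.41 reads per kb, listed a peak at 9 opened and 5 closed regions. Of the upper-ranked regions of Bcat_KO and WT, 56.0% and 58.6% had a peak there, and no replicate stands behind these values.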

How the data were processed

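ATAC-seq peaks of 2 WT and 2 Bcat_KO libraries of mouse LSK cells were compared. Per the submitters' processing notes, reads were aligned with Bowtie2 2.4.2 to GRCm38/mm10 and handled with SAMtools 1.14 and Picard 2.27.4, and peaks were called with MACS2, whose version is not given in the sources used here. The peak names show that unmapped and duplicate reads had been removed, and each library was called alone. The deposited lists hold, per peak, the authors' score, a fold, which is the ratio of summit pileup to local background, the −log10 p-value, the −log10 q-value and the summit offset. The sources used here record no scaling between libraries. A score or fold is the authors' value of that peak and describes it within its own list.

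Peaks of chromosomes 1 to 19 were merged, ranked by −log10 p and called as the report states, with Python 3.11.15, pandas 2.3.3, NumPy 2.4.6, SciPy 1.17.1 and matplotlib 3.10.9. A region's rank is its best peak's. Whole reads at each summit and the background there were solved from fold and p. The lowest background of a list per length of its shortest peak was taken as depth. Genes were the protein-coding and long non-coding genes of RefSeq on GRCm38.p6 (34631 genes), and starts came from RefSeq's windows of 300 bases (27025 genes). For genes without such a window, both ends of the gene were taken as starts, so regions near a start include some at 3′ ends. Motifs, intended for the sequence at peak summits, were counted in these windows, as no genome sequence was used here. The 16 gene lists held 352 genes. The members and lists were chosen with earlier results of these data known.

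Named regions were all closed regions with a gene within 50 kb, the 30 opened regions of best mean Bcat_KO rank and those at list genes, the 12 largest shifts each way among separated shared regions, and each list's extremes. A few of these are not reported here. The closed and opened calls and upward shifts were checked on simulated peak lists with known changes. Those lists all came from a single library, so the check did not cover group differences in depth, list length or peak width. Alternatives were ranking by fold, uncut lists, other cuts and filters, another overlap, chromosomes X and Y, and each library left out.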

Additional observations from a re-analysis of the deposited data

Results flagged for a closer look

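Chromosome Y was outside the comparison, which used autosomes. Below 90 Mb, the male-specific part, Bcat_KO replicate 1 had 13 peaks and Bcat_KO replicate 2 had 12 peaks, while both WT libraries had 0. The HOXA9_KO libraries had 15 and 16 such peaks and the PRMT1_KO libraries 12 each, and the dKO library had 6. Sex and genotype cannot be told apart here.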

How the results depend on the processing

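Counts depended on the cut. With the lists uncut, 16 regions were closed and 693 opened, 8981 shared regions ranked higher and 1590 lower, and 53.8% of shared regions lay near a start. The median shift near starts then turned to 2.80, since ranks were taken as a share of lists of unequal length. With 13768 peaks per list, 7 regions were closed (57.1% near a start) and 40 opened, 2164 ranked higher and 2500 lower, and 72.0% of shared regions lay near a start. At a −log10 q of at least 5, 18 were closed (66.7% near a start) and 52 opened, and 64.1% of shared regions lay near a start. Leaving out 1 library gave 93 to 314 closed, 310 to 520 opened, 6148 to 7697 higher and 7343 to 9155 lower regions, and 49.1 to 55.9% of shared regions near a start. Of these, 314, 520, 7697, 9155 and 49.1% came without WT replicate 2, where the cut also moved to 34583. With the cut kept at 27536, a setting chosen after seeing the data, they were 180, 250, 6758, 7490 and 53.2%. Ranking by fold gave 50 closed and 166 opened regions, of which 23 and 100 were among the 36 and 116. Of 53 named shifts, 41 had a value under fold and kept their sign, with 2 of them moved beyond the replicate spread. The other 12, among them Fhad1, Egr1, Jun and Gtf2i, were not shared under that ranking. All other alternatives gave counts within 1.5 times. No paired analysis was possible because the calls come from a rank rule with no test.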
